A study of Mus musculus with 21 samples.

Results

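The genes described here are 9 genes whose variants cause amyotrophic lateral sclerosis (ALS) or frontotemporal dementia (FTD) or modify their risk: C9orf72, Tardbp, Sod1, Sqstm1, Optn, Tbk1, Vcp, Grn and Tmem106b. They were found by gene symbol, as 9 of the 64361 genes in the count table, and each symbol matched 1 Ensembl gene. The list itself was drawn up with earlier results of these data known. Their RNA was measured by prime-seq, which reads the 3' ends of polyadenylated transcripts in bulk tissue. GA-Camk2a mice carry a GFP-tagged poly-GA transgene behind a floxed stop, which a Camk2a-Cre driver removes in excitatory neurons. Poly-GA is a dipeptide repeat protein made from the expanded repeat of C9orf72, and the transgene leaves the mouse C9orf72 gene itself in place. The comparison asks whether poly-GA made in excitatory neurons was accompanied by altered RNA of other genes of the same disease.

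Both genotypes were kept on a C57BL/6J background and were taken between 30 and 40 weeks of age with no treatment stated in the labels. Per the methods, the GA-Camk2a mice came from 2 litters, and the study places their humane endpoint at about the younger end of this span of ages. The labels give the controls as ctrl without spelling out their alleles. Cortex was measured in 5 control mice and 6 GA-Camk2a mice, and hippocampus in 4 of the same controls and the same 6 GA-Camk2a mice. These numbers follow the labels, whereas a legend of the study places the missing control in the other tissue. The libraries held between 1048201 and 5888102 counts (median 1975173), and those of the hippocampus controls were deepest (median 3732867). The row for the GFP sequence held 0 to 4 counts per library, too few to check the genotype labels. The 5 hippocampus markers summed to between 563 and 775 CPM in hippocampus libraries and to between 91.7 and 154 CPM in cortex libraries, where CPM is the count scaled by the library total. Some libraries stood apart in marker sums. Across the hippocampus libraries the 3 choroid plexus markers summed to between 1793 and 55350 CPM, and the 5 cortex markers to between 171 and 5374 CPM. In the cortex libraries the same 5 markers summed to between 238 and 705 CPM. The high cortex marker sums in hippocampus are therefore no measure of cortex content, and their source was not tested. In GA-Camk2a mice 3 of the 5 were lower and 2 higher in hippocampus than in cortex. The 5 striatum markers were all lower in GA-Camk2a cortex, at 104 to 173 CPM against 300 to 420 CPM in controls.

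As background, the 9 proteins meet in a few pathways. TDP-43, the product of Tardbp, is an RNA-binding protein of the nucleus that aggregates in the cytoplasm in most ALS. C9orf72 forms a complex with SMCR8 and WDR41 that acts on small GTPases in membrane traffic and autophagy. Sqstm1 encodes p62, a receptor that links ubiquitinated cargo to autophagosomes, and p62 marks poly-GA inclusions in patients. Optineurin (Optn) is another such receptor, TBK1 is the kinase that phosphorylates both receptors, and VCP is an ATPase that pulls ubiquitinated proteins out of complexes. Progranulin (Grn) is a secreted and lysosomal glycoprotein made largely by microglia and neurons, and loss of 1 copy causes FTD with TDP-43 inclusions. TMEM106B is a lysosomal membrane protein that modifies this risk, and SOD1 is the cytosolic superoxide dismutase.

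Among the 9 genes, Grn and Sqstm1 were higher in GA-Camk2a mice in both tissues and no other gene passed the test for genotype in either tissue. Grn was about 2.02-fold higher in cortex and 1.82-fold higher in hippocampus. Sqstm1 was 1.43-fold higher in cortex and 1.36-fold higher in hippocampus. Hence 2 of 9 genes were called in cortex, against 12.5% of the 13058 genes tested (6.35% higher and 6.17% lower), and 2 of 9 in hippocampus, against 10.9% of the 14884 genes tested (4.97% higher and 5.97% lower). A call means an adjusted p under 0.05 in edgeR's quasi-likelihood test with batch as a covariate, with Benjamini-Hochberg adjustment over all genes tested. Before adjustment, 2 genes had a p under 0.05 in cortex and 5 in hippocampus, the further 3 being Optn, C9orf72 and Tbk1. All 9 genes passed the filter on low counts in every comparison. The median log2 fold change of the 9 genes was -0.062 in cortex and 0.015 in hippocampus, beside -0.0050 and 0.016 over all genes tested.

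**Figure D1:**
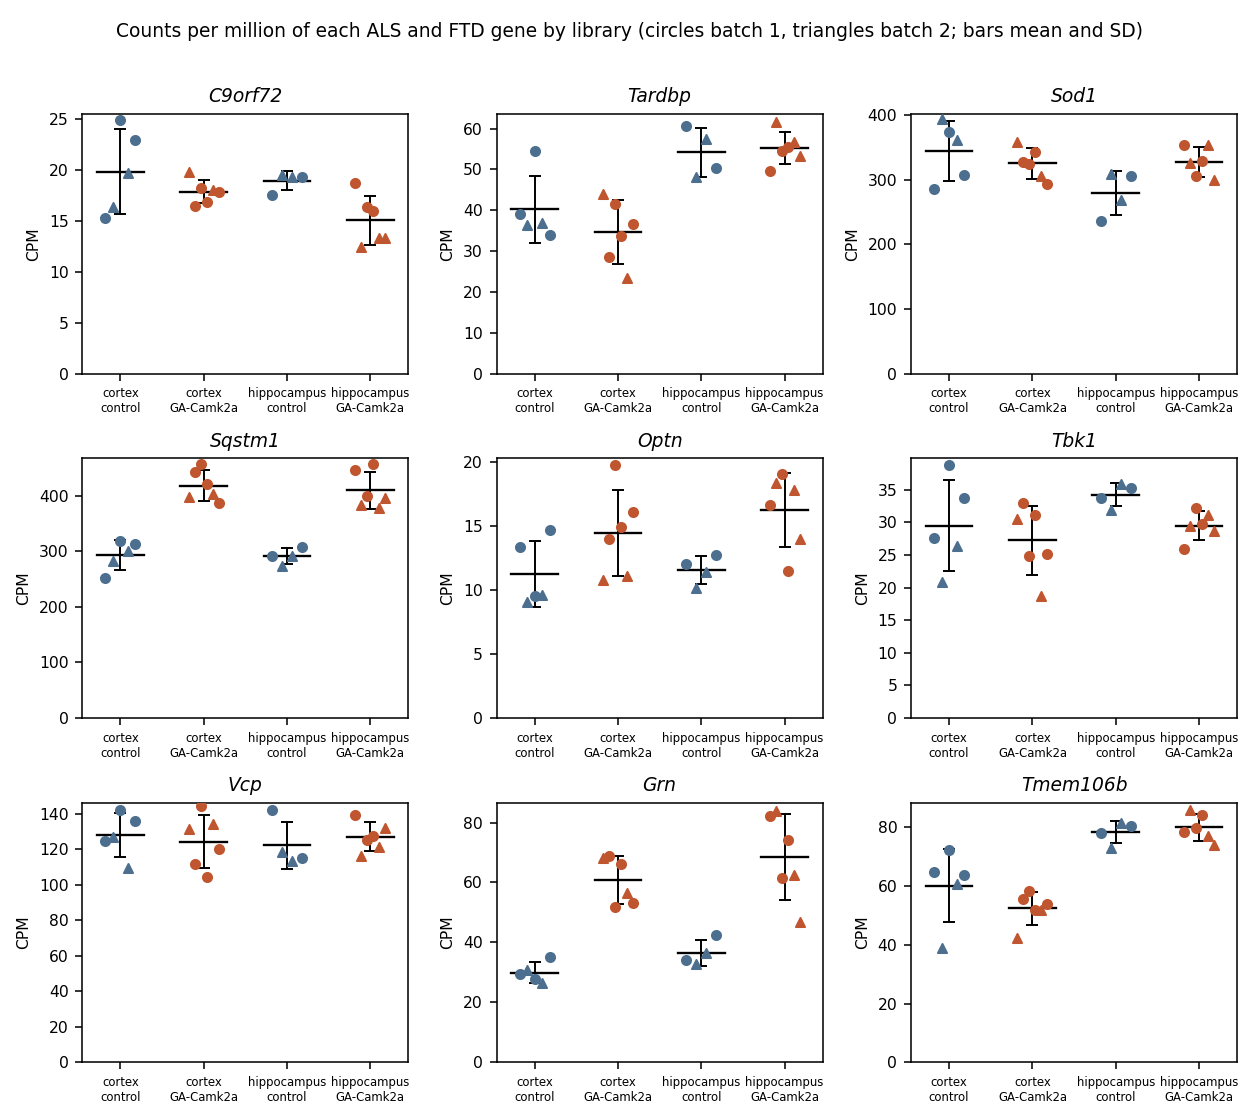
CPM of each of the 9 genes (vertical axis, from 0) in each library, by tissue and genotype. Circles are batch 1, triangles batch 2, and the bars give the mean and SD of 5, 6, 4 and 6 libraries. GA-Camk2a libraries lie above all controls of the same tissue for Grn and for Sqstm1, and the genotype groups of each tissue overlap in the other panels.

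Reads of 3' ends do not show which start site made the counted RNA, so promoters are printed for reference only. The sequences printed are those just upstream of the start sites of 2 genes that rose with genotype, Grn and Sqstm1, and of the 2 called between tissues in GA-Camk2a mice, Tardbp and Tmem106b. Each is the 250 bases before the RefSeq start site in the GRCm38.p6 assembly, 5' to 3' on the gene's own strand, in lower case with motif matches in capitals. They lie at chr11:102430257-102430506 (plus strand) for Grn, chr11:50210821-50211070 (minus strand) for Sqstm1, chr4:148626997-148627246 (minus strand) for Tardbp and chr6:13069509-13069758 (plus strand) for Tmem106b. The counts were made on a later build, so these positions locate the promoters only.
Grn: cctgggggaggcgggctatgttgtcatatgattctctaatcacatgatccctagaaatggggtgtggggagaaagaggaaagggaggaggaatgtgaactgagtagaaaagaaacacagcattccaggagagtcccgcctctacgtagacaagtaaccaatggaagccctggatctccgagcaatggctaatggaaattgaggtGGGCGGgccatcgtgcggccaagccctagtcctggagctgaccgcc
Sqstm1: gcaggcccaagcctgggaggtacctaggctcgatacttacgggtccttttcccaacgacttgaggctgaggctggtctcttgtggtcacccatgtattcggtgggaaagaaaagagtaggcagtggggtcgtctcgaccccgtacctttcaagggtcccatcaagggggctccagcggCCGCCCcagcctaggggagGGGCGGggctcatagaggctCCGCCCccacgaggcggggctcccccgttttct
Tardbp: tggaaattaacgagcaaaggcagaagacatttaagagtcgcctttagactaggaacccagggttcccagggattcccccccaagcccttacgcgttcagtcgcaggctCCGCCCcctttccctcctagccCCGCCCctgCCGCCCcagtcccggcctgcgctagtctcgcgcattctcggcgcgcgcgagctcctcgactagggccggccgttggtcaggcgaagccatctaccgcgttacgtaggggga
Tmem106b: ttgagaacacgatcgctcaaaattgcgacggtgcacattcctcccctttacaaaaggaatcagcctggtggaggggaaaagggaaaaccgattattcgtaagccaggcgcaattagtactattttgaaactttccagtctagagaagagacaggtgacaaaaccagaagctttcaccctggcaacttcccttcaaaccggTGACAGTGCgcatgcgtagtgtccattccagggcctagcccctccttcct
The capitals in Grn, Sqstm1 and Tardbp are GC boxes (GGGCGG on either strand) and those in Tmem106b an antioxidant response element core.

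The promoters of all 9 genes (250 bases before to 50 after the start) were searched on both strands for 5 motifs. The GC box, added after the sequences had been seen, was found in 7 of 9, in 1 place in Grn and in 3 places each in Sqstm1 and Tardbp, and in 35.7% of the 32851 promoters in the reference table. The antioxidant response element core (TGACNNNGC), the binding motif of NRF2, was found in Vcp, Tmem106b and Sod1 and in 12.4% of all promoters. The CLEAR core (GTCACGTG), the motif of the lysosomal regulator TFEB, was found only in Tbk1 among the 9, where it contains the single E-box match (CACGTG), and in 2.25% of all promoters for the CLEAR core and 7.15% for the E-box. The interferon-stimulated response element core (GAAANNGAA) was found in none of the 9 and in 8.56% of all promoters. Neither Grn nor Sqstm1 held any of the 4 motifs other than the GC box in this window. The bases upstream of the start were 53.6% G or C in Grn, 63.2% in Sqstm1, 63.6% in Tardbp and 49.2% in Tmem106b, beside a median of 52.4% over all promoters.

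Grn (ENSMUSG00000034708), which encodes progranulin, had the largest change of the 9 genes in both tissues. Cortex controls 11, 20, 31, 37 and 38 had 29.6, 30.9, 27.8, 26.3 and 35.2 CPM. The 6 GA-Camk2a cortices ranged from 51.7 to 68.9 CPM with a median of 61.4 CPM. The groups did not overlap, and the lowest GA-Camk2a cortex was above the highest control. The difference was 1.01 ± 0.13 on the log2 scale by edgeR (adjusted p = 9.13e-06). In hippocampus, controls 11, 20, 31 and 37 had 34.1, 32.8, 36.5 and 42.6 CPM, and the GA-Camk2a mice ranged from 46.7 to 83.7 CPM with a median of 68.2 CPM. These groups did not overlap either, although GA-Camk2a mouse 41 lay close to control 37. On the log2 scale the change was 0.86 ± 0.15 (SE, edgeR, adjusted p = 0.00134).

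Sqstm1 (ENSMUSG00000015837), the gene of the autophagy receptor p62, changed less than Grn and with a smaller error. Cortex controls had 252, 282, 319, 300.2 and 313 CPM in the same order of mice, and the GA-Camk2a cortices ranged from 387 to 457 CPM with a median of 412 CPM. The hippocampus controls had 292, 274, 292 and 308 CPM, and the GA-Camk2a hippocampi ranged from 378 to 456 CPM with a median of 397 CPM. All GA-Camk2a libraries were above all controls in both tissues, and the level in controls was almost the same in cortex (293 ± 27.2 CPM, SD, n = 5) and hippocampus (291 ± 13.7 CPM, SD, n = 4). In log2 terms the change was 0.51 ± 0.082 in cortex (SE, edgeR, adjusted p = 0.000187) and 0.45 ± 0.075 in hippocampus (SE, edgeR, adjusted p = 0.00123). In each tissue taken alone, the genotype groups did not overlap for 2 of 9 genes, Grn and Sqstm1. This stands against 6.17% of all genes tested in cortex and 9.62% in hippocampus. The share of all genes that did not overlap in both tissues at once was not computed.

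Both calls were present in each of the 11 cortex and 10 hippocampus fits that left out 1 library. The number called over all genes was less steady: it was 1038 in cortex without control 31, in place of 1635, and in hippocampus 1038 without control 31 and 1082 without control 20, in place of 1628. With fewer libraries or fewer counts some calls were lost. Sqstm1 missed the threshold in cortex with batch 2 alone (log2 fold change 0.46, edgeR, adjusted p = 0.0984). In hippocampus Sqstm1 missed it with batch 1 alone (0.49, edgeR, adjusted p = 0.150) or batch 2 alone (0.39, edgeR, adjusted p = 0.0695). Grn missed it in hippocampus with batch 1 alone (0.87, edgeR, adjusted p = 0.0810) or with counts thinned to the smallest library (0.81, edgeR, adjusted p = 0.0683).

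**Figure D2:**
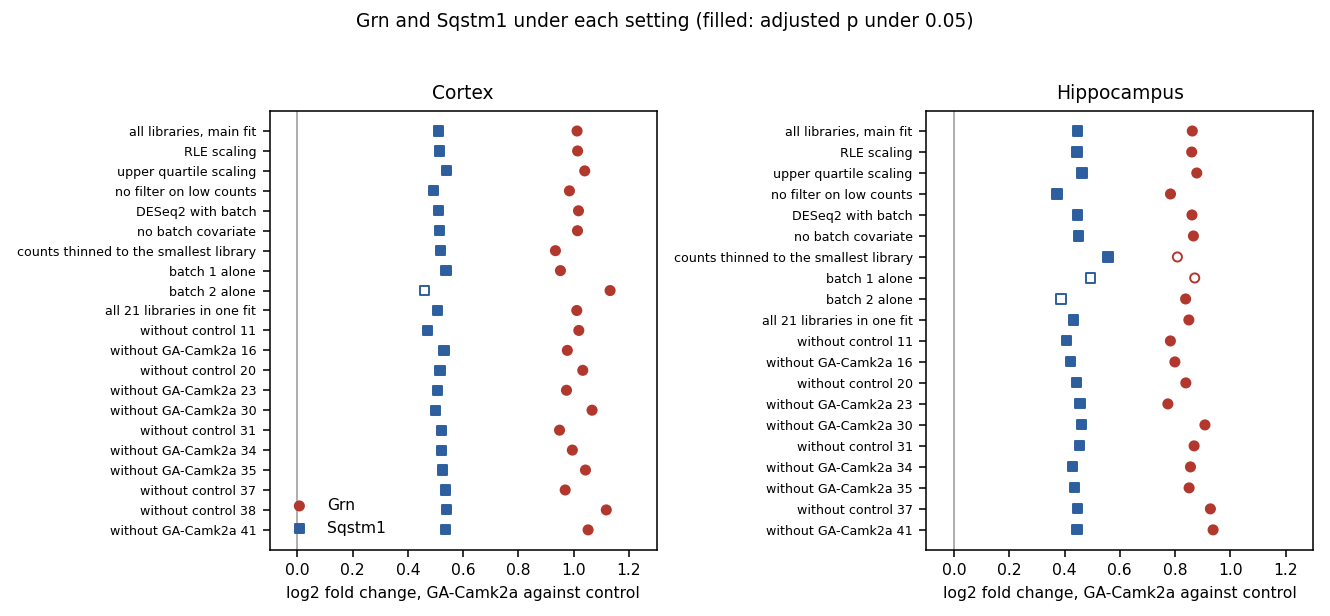
log2 fold change of GA-Camk2a against control (horizontal axis) for Grn (circles) and Sqstm1 (squares) under each way of processing or subset of libraries (vertical axis), with filled symbols where the adjusted p was under 0.05. All values lie above 0, and open symbols appear only for a single batch or for thinned counts.

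The RNA of other cell types moved with Grn and Sqstm1. Of 8 microglia markers, 6 were higher in each tissue, and their sum was 312 to 346 CPM in control cortex against 746 to 1098 CPM in GA-Camk2a cortex, and 274 to 318 CPM against 491 to 752 CPM in hippocampus. Of 6 astrocyte markers, 3 were higher in cortex and 4 in hippocampus. Of 6 excitatory neuron markers, 5 were lower in cortex and 4 in hippocampus, with sums of 932 to 1373 CPM against 703 to 878 CPM and of 1365 to 1701 CPM against 665 to 900.3 CPM. Of 6 inhibitory neuron markers, 1 was higher in cortex and 2 in hippocampus, and 0 were lower in either tissue. No gene of these lists was at 0 in a whole group. What part of the change in Grn or Sqstm1 goes with the number of microglia was not tested, and bulk RNA cannot tell a change in the number of cells of a type from a change in RNA per cell.

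The other autophagy genes among the 9 did not pass the test for genotype. Optn, like Sqstm1 a cargo receptor, was a low gene with 10 to 64 counts per library. Its cortex controls had 13.4, 9.08, 9.53, 9.62 and 14.7 CPM and the GA-Camk2a cortices 10.8 to 19.8 CPM with a median of 14.5 CPM. In hippocampus the controls had 12.02, 10.2, 11.4 and 12.8 CPM and the GA-Camk2a mice 11.5 to 19.1 CPM with a median of 17.2 CPM. Here 5 of the 6 GA-Camk2a mice were above all controls and mouse 34, at 11.5 CPM, lay within their range. The log2 fold change was 0.35 ± 0.19 in cortex (adjusted p = 0.246) and 0.46 ± 0.18 in hippocampus (SE, edgeR, adjusted p = 0.116), and it passed in hippocampus without GA-Camk2a mouse 34 (0.55, adjusted p = 0.0326). The cortex value of Optn was 0.19 without control 31.

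Tbk1, the kinase upstream of both receptors, had 27.7, 20.9, 38.8, 26.3 and 33.8 CPM in cortex controls and 18.7 to 33.0 CPM in GA-Camk2a cortex with a median of 27.9 CPM. In hippocampus it had 33.8, 31.9, 35.9 and 35.3 CPM in controls and 25.9 to 32.3 CPM in GA-Camk2a mice with a median of 29.6 CPM. The hippocampus groups met only at the edge, where GA-Camk2a mouse 30 exceeded control 20. Its log2 fold change was -0.18 ± 0.14 in cortex (adjusted p = 0.463) and -0.25 ± 0.11 in hippocampus (SE, edgeR, adjusted p = 0.159). The cortex value was -0.12 without control 31 and -0.12 without GA-Camk2a mouse 35.

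Vcp, the ubiquitin-directed ATPase, had the smallest change in cortex. Its cortex controls had 125, 127, 142, 109 and 136 CPM and GA-Camk2a cortices 105 to 144 CPM with a median of 126 CPM. Its hippocampus controls had 142, 119, 113 and 115 CPM and GA-Camk2a mice 116 to 139.7 CPM with a median of 127 CPM. The groups overlapped over nearly their whole range, and the log2 fold change was -0.037 ± 0.10 in cortex (adjusted p = 0.865) and 0.015 ± 0.084 in hippocampus (SE, edgeR, adjusted p = 0.944).

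C9orf72 (ENSMUSG00000028300), the mouse counterpart of the gene whose repeat gives rise to poly-GA, was measured with 16 to 115 counts per library. The cortex controls had 15.3, 16.3, 24.9, 19.7 and 22.996 CPM, and the GA-Camk2a cortices 16.5 to 19.8 CPM with a median of 17.96 CPM, within the range of the controls. The hippocampus controls had 17.5, 19.5, 19.4 and 19.4 CPM, and the GA-Camk2a hippocampi 12.5 to 18.8 CPM with a median of 14.7 CPM. In hippocampus 5 of 6 GA-Camk2a mice were below all controls, with mouse 16 above control 11. Its log2 fold change was -0.21 ± 0.15 in cortex (adjusted p = 0.409) and -0.36 ± 0.15 in hippocampus (SE, edgeR, adjusted p = 0.140).

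Tardbp, the gene of TDP-43, had 39.1, 36.3, 54.6, 37.0 and 34.1 CPM in cortex controls and 23.3 to 44.0 CPM in GA-Camk2a cortex with a median of 35.3 CPM. Hippocampus controls had 60.7, 48.1, 57.5 and 50.4 CPM and GA-Camk2a hippocampi 49.6 to 61.7 CPM with a median of 55.0 CPM. Genotype groups overlapped in both tissues. The log2 fold change was -0.24 ± 0.15 in cortex (adjusted p = 0.355) and -0.0063 ± 0.097 in hippocampus (SE, edgeR, adjusted p = 0.982). The cortex value rested in part on control 31 and was -0.096 without it.

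Tmem106b, the lysosomal membrane protein gene, had 64.9, 39.1, 72.2, 60.8 and 63.7 CPM in cortex controls and 42.2 to 58.2 CPM in GA-Camk2a cortex with a median of 52.9 CPM. All GA-Camk2a cortices were below 4 of the 5 controls, and control 20 was the lowest cortex of all. Hippocampus controls had 77.9, 73.0, 81.5 and 80.2 CPM and GA-Camk2a mice 74.1 to 85.9 CPM with a median of 79.0 CPM. Its log2 fold change was -0.22 ± 0.11 in cortex (adjusted p = 0.233) and -0.0083 ± 0.081 in hippocampus (SE, edgeR, adjusted p = 0.997).

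Sod1, the superoxide dismutase gene, had 285, 394, 374, 361 and 307 CPM in cortex controls and 293 to 359 CPM in GA-Camk2a cortex with a median of 326 CPM. Hippocampus controls had 237, 309, 269 and 306 CPM and GA-Camk2a hippocampi 299.5 to 354 CPM with a median of 328 CPM. The cortex groups overlapped throughout, and in hippocampus the GA-Camk2a range began below the 2 highest controls. The log2 fold change was -0.062 ± 0.087 in cortex (adjusted p = 0.709) and 0.18 ± 0.10 in hippocampus (SE, edgeR, adjusted p = 0.293). Without control 11 the hippocampus value was 0.089, and with 1 library left out the cortex value ranged from -0.097 to -0.0059.

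**Figure D3:**
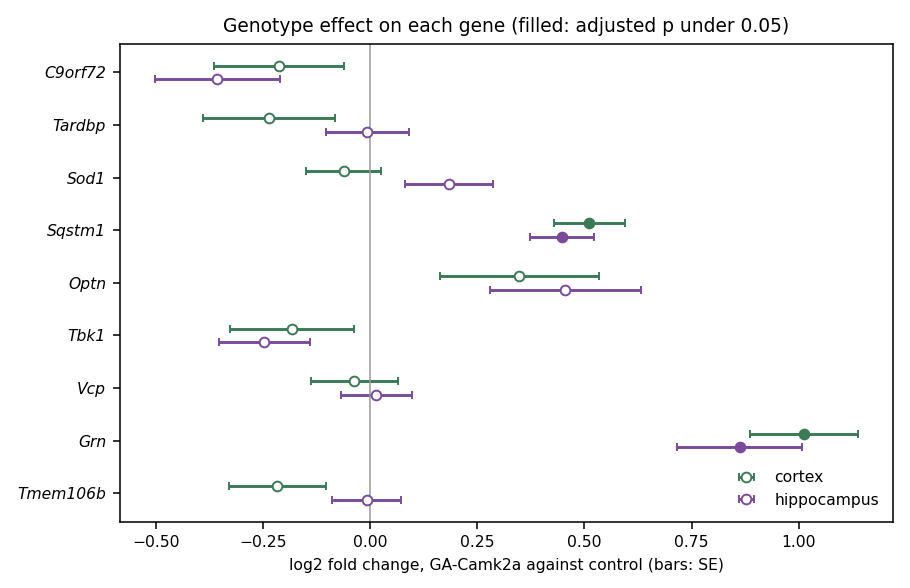
log2 fold change of GA-Camk2a against control (horizontal axis, bars give the SE) for each gene in cortex and in hippocampus, with filled symbols where the adjusted p was under 0.05. Grn (1.01 and 0.86) and Sqstm1 (0.51 and 0.45) are filled, and the other 7 genes lie between -0.36 and 0.46.

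The genotype effects of the 2 tissues were compared by an interaction term over all 21 libraries. None of the 9 genes passed in edgeR, against 0.4% of 14751 genes, none had an unadjusted p under 0.05 and none passed with DESeq2. The number called over all genes was itself unsteady, at 59 here, 127 with DESeq2, 6 with thinned counts and 0 with either batch alone by edgeR (1133 and 803 at an unadjusted p under 0.05). The largest difference was that of Sod1, whose log2 fold change was 0.24 ± 0.13 higher in hippocampus than in cortex (SE, edgeR, adjusted p = 0.575). The effect on Grn differed by -0.16 ± 0.20 and that on Sqstm1 by -0.075 ± 0.10 (hippocampus minus cortex, SE). With 1 library left out these ranged from -0.23 to -0.043 for Grn, weakest without hippocampus GA-Camk2a mouse 41, and from -0.11 to -0.00088 for Sqstm1, weakest without cortex control 11.

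Tardbp and Tmem106b were called between the tissues in GA-Camk2a mice and not in controls. In GA-Camk2a mice, Tmem106b was 1.44-fold higher in hippocampus than in cortex (log2 0.53 ± 0.084, SE, edgeR, adjusted p = 0.000163) and Tardbp 1.51-fold higher (log2 0.59 ± 0.13, SE, edgeR, adjusted p = 0.00240). These were the 2 of 9 genes called, against 33.2% of 13098 genes tested, so the count is no excess over all genes. The CPM of the tissues did not overlap for these 2 of 9 genes in GA-Camk2a mice, against 13% of all genes tested, and for 1 of 9 in controls, Tmem106b, against 13.7%. In controls the same differences were 0.33 ± 0.12 for Tmem106b (adjusted p = 0.0652) and 0.38 ± 0.13 for Tardbp (SE, edgeR, adjusted p = 0.0577), both short of the threshold. Without cortex control 31, Tardbp (0.50, adjusted p = 0.00713) and Tmem106b (0.36, adjusted p = 0.0410) passed in controls, as did Tardbp without hippocampus control 37 (0.45, adjusted p = 0.0418), all by edgeR. The call of Tardbp in GA-Camk2a mice was lost with thinned counts (0.47, adjusted p = 0.0760) and with batch 2 alone (0.70, adjusted p = 0.0610). Within single mice the hippocampus was higher than the cortex in 10 of 10 mice for Tardbp and in 10 of 10 for Tmem106b.

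Only Sod1 was called between the tissues in controls, 1 of 9 genes against 16.3% of 14435 genes tested, and it was lower in hippocampus (log2 -0.36 ± 0.11, SE, edgeR, adjusted p = 0.0329). It was lower in hippocampus in 4 of 4 control mice and in 4 of 6 GA-Camk2a mice, where the log2 difference was -0.075 ± 0.081 (edgeR, adjusted p = 0.504; -0.12 to -0.041 with 1 library left out). This call was the least stable of all: it was lost in 5 of 9 fits that left out 1 library and in 4 of 9 other alternatives, with an adjusted p of up to 0.388. Grn was higher in hippocampus in 9 of 10 mice, with a log2 difference of 0.25 ± 0.14 in controls and 0.11 ± 0.13 in GA-Camk2a mice (SE, edgeR, adjusted p = 0.224 and 0.567). The difference in Grn went down to 0.15 without hippocampus control 37 and, in GA-Camk2a mice, ranged from 0.026 without the hippocampus of mouse 16 to 0.18 without that of mouse 41. C9orf72 was lower in hippocampus in 6 of 6 GA-Camk2a mice and in 2 of 4 controls, with log2 differences of -0.27 ± 0.14 and -0.16 ± 0.16 (SE, edgeR, adjusted p = 0.192 and 0.546). The control value of C9orf72 was -0.084 without hippocampus control 11.

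**Figure D4:**
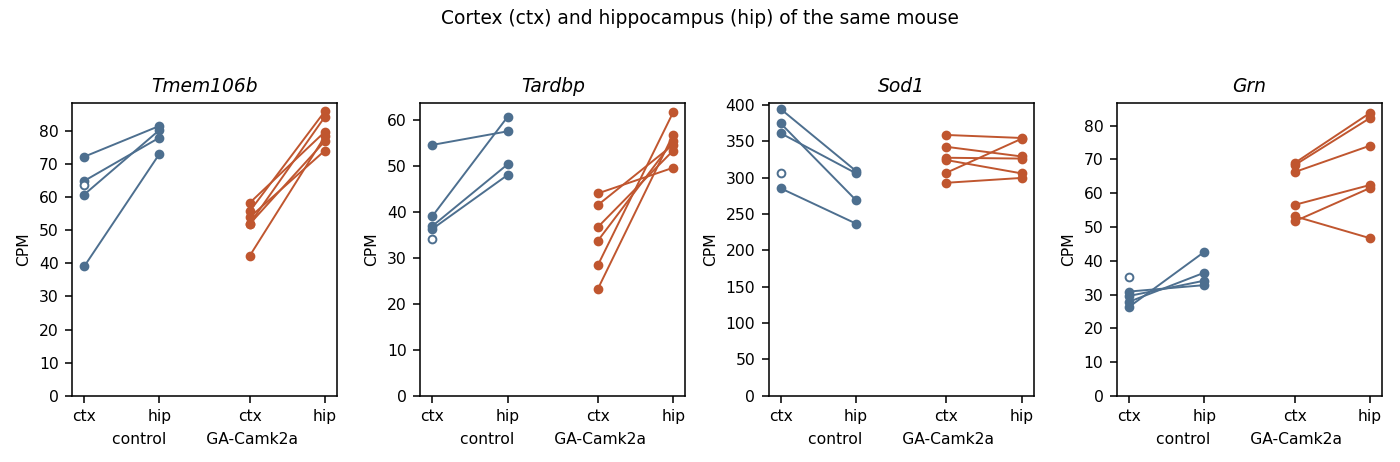
CPM (vertical axis, from 0) of Tmem106b, Tardbp, Sod1 and Grn in cortex (ctx) and hippocampus (hip), with a line for each mouse that gave both tissues and an open circle for the control with cortex only. Lines rise in all 10 mice for Tmem106b and Tardbp, fall in all 4 controls for Sod1, and rise in 9 of 10 mice for Grn.

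The partners of these genes were read from 7 lists that hold 102 genes. Of the progranulin and TMEM106B partners, which are lysosomal proteases, membrane proteins and receptors, 8 of 14 tested genes were higher and 1 lower in cortex, and 9 of 15 were higher and 1 lower in hippocampus, with median log2 fold changes of 0.47 and 0.55. The share called was thus 9 of 14 and 10 of 15, against 12.5% and 10.9% of all genes tested. Because the lists were chosen with earlier results of these data known, this share describes the list and is not a test of it. The largest rise of the list in each tissue, named after its values were seen, was that of Gpnmb, a membrane glycoprotein of activated myeloid cells, by 2.14 ± 0.50 in cortex and 1.71 ± 0.31 in hippocampus on the log2 scale (SE, edgeR, adjusted p = 0.00592 and 0.00211). The 4 genes with the lowest adjusted p in each tissue were proteases. Ctsd, the cathepsin that also processes progranulin, rose from 341 ± 27.6 CPM to 832 ± 143 CPM in cortex (SD, n = 5 and 6, log2 1.28 ± 0.11, edgeR, adjusted p = 3.79e-08) and by 0.94 ± 0.12 in hippocampus (edgeR, adjusted p = 0.000107). Ctsz rose by 1.46 ± 0.13 and 1.02 ± 0.096, Ctsb by 0.69 ± 0.096 and 0.63 ± 0.096 and Ctsl by 0.82 ± 0.12 and 0.92 ± 0.11 on the log2 scale in cortex and hippocampus (SE, edgeR, adjusted p of at most 0.000653). The 1 lower gene in each tissue, named after its values were seen, was Sort1, the receptor that takes up progranulin, at -0.46 ± 0.12 in cortex and -0.47 ± 0.11 in hippocampus (SE, edgeR, adjusted p = 0.0162 and 0.0113). The rises in this list moved with the microglia markers given above, whose part in them was not tested.

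Of the other ALS and FTD genes, 4 of 30 tested genes were lower and 0 higher in cortex, and 8 of 32 were lower and 1 higher in hippocampus. The 4 of 30 called in cortex stand beside 12.5% of all genes tested (6.17% lower), and the 9 of 32 in hippocampus beside 10.9% (5.97% lower). The genes that fell in both tissues included neuronal ones. Kif5a, the neuronal kinesin of axonal transport, fell from 674 ± 111 CPM to 343 ± 45.0 CPM in cortex (SD, n = 5 and 6, log2 -0.98 ± 0.090, edgeR, adjusted p = 1.41e-07) and from 595 ± 58.0 CPM to 330.1 ± 41.2 CPM in hippocampus (SD, n = 4 and 6, log2 -0.89 ± 0.091, edgeR, adjusted p = 2.76e-05). Unc13a, a synaptic vesicle priming factor, changed by -0.70 ± 0.12 and -0.88 ± 0.11 (edgeR, adjusted p = 0.000547 and 0.000136). Tuba4a changed by -0.40 ± 0.095 and -0.51 ± 0.087, and Ubqln2, a shuttle of ubiquitinated proteins, by -0.38 ± 0.098 and -0.34 ± 0.084 on the log2 scale (SE, edgeR, adjusted p of at most 0.0175). Stmn2, which keeps axonal microtubules dynamic, fell in hippocampus (-0.40 ± 0.082, edgeR, adjusted p = 0.00509) and was at -0.17 in cortex, short of the threshold. The 1 higher gene, named after its values were seen, was Ang in hippocampus (1.56 ± 0.37, SE, edgeR, adjusted p = 0.0136). These falls moved with the excitatory neuron markers given above, whose part in them was not tested.

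Of 20 autophagy receptors and machinery genes, 2 were higher and 2 lower in cortex, and 1 was higher and 1 lower in hippocampus. These counts, 4 of 20 beside 12.5% of all genes tested in cortex and 2 of 20 beside 10.9% in hippocampus, lie close to the background. Nfe2l2, which encodes the transcription factor NRF2 that acts on the Sqstm1 gene, rose from 13.8 ± 3.54 CPM to 29.8 ± 5.80 CPM in cortex (SD, n = 5 and 6, log2 1.13 ± 0.17, edgeR, adjusted p = 0.000125) and from 18.6 ± 2.52 CPM to 32.9 ± 4.63 CPM in hippocampus (SD, n = 4 and 6, log2 0.76 ± 0.14, edgeR, adjusted p = 0.00294). Whether the rise of Nfe2l2 bears on that of Sqstm1 was not tested. Gabarap, a ubiquitin-like protein of the autophagosome membrane, rose in cortex by 0.27 ± 0.087 (adjusted p = 0.0459), whereas its relative Gabarapl1 fell in hippocampus by 0.43 ± 0.081 (SE, edgeR, adjusted p = 0.00288). The large adaptor Wdfy3 and the initiation factor Rb1cc1 fell in cortex by 0.47 ± 0.12 and 0.46 ± 0.12 (SE, edgeR, adjusted p = 0.0131 and 0.0114).

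The nearest partners of the remaining genes held 1 call in all, in short lists that stand beside 12.5% and 10.9% of all genes tested. Neither of the 2 partners in the C9orf72 complex passed in either tissue, with Smcr8 at 0.28 ± 0.23 and 0.0017 ± 0.19 and Wdr41 at -0.076 ± 0.21 and -0.0037 ± 0.16 on the log2 scale (SE). None of the 5 TBK1 adaptors and signalling genes tested in cortex and none of 7 in hippocampus passed. Of the VCP cofactors, 0 of 18 passed in cortex and 1 of 19 in hippocampus, Ubxn1, a ubiquitin-binding cofactor (0.36 ± 0.089, SE, edgeR, adjusted p = 0.0166). None of the 3 superoxide dismutase partners passed, with Ccs, the copper chaperone of SOD1, at 0.33 ± 0.16 and 0.45 ± 0.15 (SE, edgeR, adjusted p = 0.181 and 0.0742). No gene of the 7 lists passed the interaction test between the tissues.

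**Figure D5:**
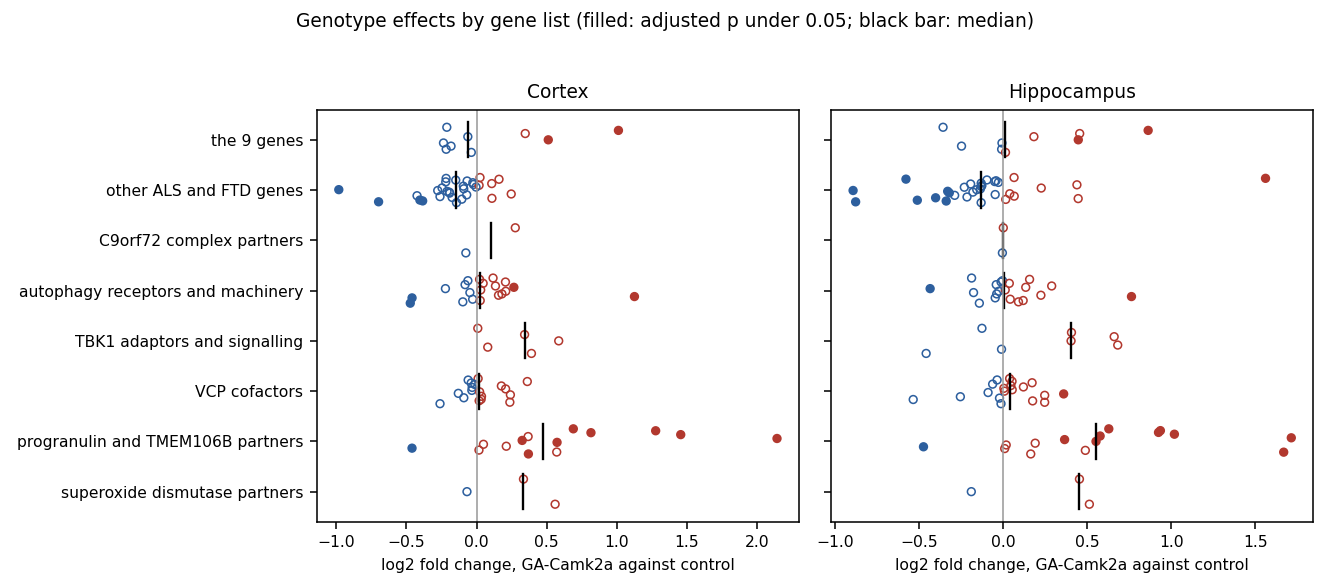
log2 fold change of GA-Camk2a against control (horizontal axis) for the 9 genes and for each tested gene of 7 partner lists, in cortex and hippocampus. Filled points have an adjusted p under 0.05, red is above 0 and blue below, and the black bar is the list's median. The progranulin and TMEM106B partners have the highest medians (0.47 and 0.55).

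The pattern over all 21 libraries was described by Pearson's r of log2 CPM, without a test, since the libraries share genotypes, tissues and mice. The genes most like Grn among 10159 genes of at least 10 CPM were Clu (r = 0.927), Capg (0.923) and Serping1 (0.920). Those most like Sqstm1 were Ccl6 (0.935), Cd14 (0.933) and the microglia marker C1qb (0.931). Those most like Tmem106b were Ylpm1, Shisal1 and Rasa1 (0.939, 0.924 and 0.923), and those most like Tardbp were Snhg14, Schip1 and Gpatch8 (0.921, 0.916 and 0.915). Tbk1 was closest to Nav3 (0.833), Optn to 2010320M18Rik (0.815), Sod1 to Cdkn1a (0.807), Vcp to Zdhhc18 (0.793) and C9orf72 to Mcts2 (0.770). Among the 9 genes themselves the highest values were those of Sqstm1 with Grn (0.868) and Tardbp with Tmem106b (0.735), and the lowest was that of C9orf72 with Grn (-0.46).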

How the data were processed

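From the demultiplexed prime-seq reads the authors built a table with zUMIs against GRCm39 plus a GFP sequence, and they deposited whole-number counts per gene, not normalized. The submitters' processing notes name FastQC 0.11.8, cutadapt 1.12, STAR and DESeq2 1.44. Whether unique molecular identifiers or reads were counted, the annotation release and the use of strand are not given in the sources used here. On GENCODE exons of the GRCm38 build, C9orf72, Grn, Optn, Sqstm1, Tardbp and Vcp overlap a gene on the other strand, so reads of the pair could not be told apart if strand was not used. Over all libraries the partner with most counts was Fam171a2, with 314 counts beside 2466 for Grn.

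Groups, mouse numbers and batches were taken from the labels, and mice are the replicates. All 21 libraries were kept, and 0 count columns were unused. The 46 pairs of libraries within groups differed by a chi-square per degree of freedom of 2.10 to 15.1 and 0 pairs were identical. GFP counts entered neither the library totals nor any test. Symbols from GENCODE were found for 43308 rows, which held 96.1% of counts, with older symbols used for 3 list genes.

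Each tissue's genotype effect was fitted in edgeR 4.0.16 (R 4.3.3; TMM, filterByExpr with a minimum count of 10, quasi-likelihood F-test, batch as covariate). P-values were adjusted over all genes tested with a threshold of 0.05. The study's methods name DESeq2 and do not give its design, so DESeq2 1.42.0 with batch was an alternative. The SE was the log2 fold change divided by the square root of F. CPM were scaled by the library total without TMM, and counting error alone understates the error if reads were counted. Code was tested on simulated data.

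Same-numbered libraries are the same mouse. Their deviations from the group means correlated at 0.206 to 0.389 in the 5 mice with both tissues in 1 batch and at -0.289 to -0.111 in the 5 with tissues in different batches. The fit with the mouse as a block was an alternative for the tissue and interaction comparisons.

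The members and lists were chosen with earlier results of these data known. Named were all 9 genes, up to 4 called genes per list and tissue by lowest adjusted p, and for each member up to 3 most similar genes (log2 CPM, prior count 2). Alternatives were RLE and upper quartile scaling, no low-count filter, DESeq2, no batch term, thinning to 1048201 counts, each batch alone, all 21 libraries in 1 fit, the mouse block and leaving out each library. For the tissue and interaction comparisons, the fits of each batch alone were chosen after seeing the data. Promoters came from RefSeq on GRCm38.p6, with 9 of 9 genes matched.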

Additional observations from a re-analysis of the deposited data

Results flagged for a closer look

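In 96 groups of 4 to 6 libraries, 6 had a highest or lowest library far from the others (Dixon's test), and chance alone gives about 1 in 20. Among the 9 genes, Tardbp was highest in cortex control 31 at 54.59 CPM, with the next control at 39.11 CPM, and C9orf72 was lowest in hippocampus control 11 at 17.54 CPM, with the next at 19.37 CPM. Without cortex control 31 the genotype effect on Tardbp in cortex was -0.096 on the log2 scale, in place of -0.24, and its tissue difference in controls passed the threshold (0.50; edgeR, adjusted p = 0.00713). Without hippocampus control 11 the effect on C9orf72 in hippocampus was -0.45 (edgeR, adjusted p = 0.103).

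Of the named partner genes, Unc13a and Kif5a were also highest in cortex control 31, at 122.7 CPM (next 77.85 CPM) and 865.4 CPM (next 659.7 CPM). In GA-Camk2a cortex, mouse 30 had the lowest Stmn2, 262.4 CPM (next 304.7 CPM), and the highest Gabarapl1, 244.6 CPM (next 176.0 CPM).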

How the results depend on the processing

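Of 972 values of the 9 genes under the alternatives, 906 kept their direction and their side of the threshold, 16 lost and 4 gained a call, and 46 changed sign, none of them called in the full comparison. The numbers of members called moved as follows. With batch 2 alone 1 was called in cortex, 1 in hippocampus and 1 between tissues in GA-Camk2a mice, and with batch 1 alone 0 in hippocampus and 0 between tissues in controls. Thinning gave 1 in hippocampus, 0 between tissues in controls and 1 in GA-Camk2a mice, and 9 partner genes in each tissue in place of 17 in cortex and 22 in hippocampus. Between tissues in controls, 0 were called without the filter or without the batch term, and 0 to 3 with 1 library left out. The 3 came without cortex control 31 (Sod1, Tardbp and Tmem106b), and 0 came without hippocampus control 11, 20 or 31 or cortex control 20 or 37. Over all genes, the numbers called in hippocampus were 115 with batch 1 alone, 681 with batch 2 alone and 418 thinned, in place of 1628, and in cortex 876 with batch 1 alone, 230 with batch 2 alone and 699 thinned, in place of 1635. In the interaction they were 159 without the filter, 127 with DESeq2, 36 without the batch term, 6 thinned and 0 with either batch alone (edgeR, with 1133 and 803 genes at an unadjusted p under 0.05 in batch 1 and batch 2), in place of 59. Between tissues in GA-Camk2a mice they were 2086 thinned, 2585 with batch 1 alone and 1353 with batch 2 alone, in place of 4350, and in controls 563 thinned, 1241 with batch 1 alone, 1314 with batch 2 alone, 2049 without the batch term and 2582 without the filter, in place of 2351. With 1 library left out they were 1038 to 1526 in cortex, 1038 to 1831 in hippocampus, 22 to 66 in the interaction, 1580 to 3168 between tissues in controls, highest without cortex control 31, and 3668 to 4262 in GA-Camk2a mice. The cause of these moves was not tested, except that thinned counts and single batches hold fewer counts or libraries. The mouse block was fitted for the tissue and interaction comparisons only. There it changed no call of the 9 genes, with values such as -0.059 for Optn in the interaction. Over all genes it gave 70 calls in the interaction in place of 59. Between tissues it gave 2002 in controls in place of 2351, and 4312 in GA-Camk2a mice in place of 4350.

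Values that changed sign follow, with the range over all fits that left out 1 library. In cortex C9orf72 was 0.030 and Vcp 0.18 with batch 2 alone, Sod1 0.0044 with batch 1 alone, and Vcp -0.092 to 0.015 with 1 library left out. In hippocampus Tardbp was 0.0094 with upper quartile scaling, 0.039 thinned, 0.077 with batch 2 alone and -0.076 to 0.053 with 1 library left out, and Tbk1 was 0.094 thinned. Vcp there was -0.060 without the filter, -0.0058 with batch 1 alone and -0.042 to 0.064 with 1 library left out, and Tmem106b was 0.0076 with upper quartile scaling, 0.15 thinned and -0.036 to 0.010 with 1 library left out. In the interaction, thinning gave 0.0996 for C9orf72, 0.032 for Sqstm1, -0.35 for Optn and 0.41 for Tbk1, batch 1 alone 0.19 for C9orf72 and -0.032 for Optn, batch 2 alone -0.14 for Vcp, and leaving out 1 library -0.059 to 0.23 for Optn and -0.012 to 0.14 for Vcp. Between tissues in controls, C9orf72 was 0.028 with batch 2 alone, Optn -0.021 without the batch term, -0.044 with batch 1 alone and -0.11 to 0.15 with 1 library left out, and Tbk1 -0.22 thinned and -0.016 with batch 1 alone. Between tissues in GA-Camk2a mice, Optn was -0.18 thinned and -0.072 with batch 1 alone, Tbk1 -0.014 with batch 1 alone and -0.059 to 0.11 with 1 library left out, Vcp 0.065 with batch 1 alone, and Grn -0.073 with batch 2 alone. C9orf72 and Optn were low genes, with at least 16 and 10 counts per library, and the part of depth in these moves was not tested.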
